A study of Phyllotreta striolata with 15 samples.

Results

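Larvae of the striped flea beetle, Phyllotreta striolata, were compared with adults of both sexes, the pair of stages that feed. The comparison uses 9 of the 15 libraries of the series: 3 from larvae, 3 from female adults and 3 from male adults, all from whole bodies and all picked by the stage and sex in their titles. The other 6 libraries, 3 from eggs and 3 from pupae, entered the statistical model and are described only where they place a larval or adult gene. No strain, age, larval instar, host plant or number of animals per library is given in the sources used here. The comparison bears on the stated purpose of the series, which is to find genes that mark a developmental stage or a sex. Its 9 libraries share one prefix in their column names, while eggs and pupae each carry another, so that levels in eggs and pupae mix stage with prefix.

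P. striolata is a leaf beetle of crucifers. Its larvae live in the soil and feed on roots, and its adults live on the plant and chew holes into leaves. Beetles pass through a complete metamorphosis, in which the larval body is largely rebuilt in the pupa, so the adult gains wings, compound eyes and working reproductive organs, while the larva is built for feeding, growth and moulting. A whole-body library pools all of these tissues, and in such bulk RNA a smaller share of cells of one kind and less RNA per cell cannot be told apart. The deposited tables name genes by identifiers only, with no gene or protein name, so each gene below is given by its identifier and its levels, without a function.

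One larval library stood apart and is named before any result. Larva replicates 2 and 3 had a Spearman's rho of 0.958 across genes, whereas larva replicate 1 had 0.852 and 0.821 with them. It correlated better with the 3 male adult libraries, at 0.709 to 0.795, than with the 3 female adult libraries, at 0.654 to 0.669, and the other larval libraries showed the reverse order. The median SD of a gene's log2(CPM + 1) over the 3 larval libraries was 0.371, against 0.262 for female adults and 0.237 for male adults. For larva replicates 2 and 3 alone it was 0.260. A median SD over 2 libraries tends to lie below one over 3, so that value cannot be set beside the others. Among adults, male adult replicate 2 also lay apart, to a lesser degree. Its rho was 0.897 and 0.938 with male adult replicates 1 and 3, which had 0.977 with each other. Female adult libraries had 0.957 to 0.979 among themselves. Counts per library ran from 16509113 in larva replicate 1 to 29806307 in larva replicate 2, with the 6 adult libraries between 18015995 and 23367276. The numbers of genes called in each comparison are therefore given with and without larva replicate 1, and other counts rest on all libraries unless stated.

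Against the mean of the sexes, with equal weight for each, 1451 of 11440 genes tested were higher in larvae (12.7%) and 1294 were lower (11.3%). Calls rest on edgeR's quasi-likelihood test with Benjamini-Hochberg adjustment over all genes tested in a comparison. They need both an adjusted p under 0.05 and a change of at least 2-fold. The median log2 change was 1.99 among genes called higher and -1.77 among genes called lower, and changes of 8-fold or more numbered 423 and 382. Without larva replicate 1, 1340 of 11508 genes tested were higher (11.6%) and 2019 were lower (17.5%). The genes called lower then had a median log2 change of -2.42, and 854 of them differed by 8-fold or more, against 396 of the genes called higher. Of the calls with all libraries, 1265 higher and 1126 lower ones were also made without that library, and no gene changed direction.

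The balance between the directions followed the scaling. Levels are CPM, a gene's counts relative to library size after scaling by TMM, which sets libraries level on the bulk of their genes. The TMM factors were 0.694, 0.733 and 0.937 in larvae and 0.960 to 1.29 in adults. With library size alone the median gene stood at a log2 change of -0.53 in place of 0.00, and the calls became 817 higher and 2789 lower, 22.7% higher in place of 52.9%. All of these 817 genes were among the 1451, and all of the 1294 genes called lower under TMM were among the 2789. The genes named below as higher or lower than both sexes kept direction and call against the adult mean under both scalings.

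Each sex was then set against larvae on its own. Larvae and female adults differed in 2328 genes higher in larvae (20.3%) and 1883 lower (16.5%). Larvae and male adults differed in 1186 higher (10.4%) and 1213 lower (10.6%). Without larva replicate 1 the numbers against females were 1433 higher (12.5%) and 2195 lower (19.1%), and against males 1278 higher (11.1%) and 2227 lower (19.4%). With the library included, more genes were above females and fewer were below males, and 12 genes were called in opposite directions against females with and without it. Both comparisons use the same larval libraries, so part of their overlap is built in. With male adult replicate 2 left out instead of larva replicate 1, 1248 genes were higher and 806 lower in larvae than in males.

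**Figure D1:**
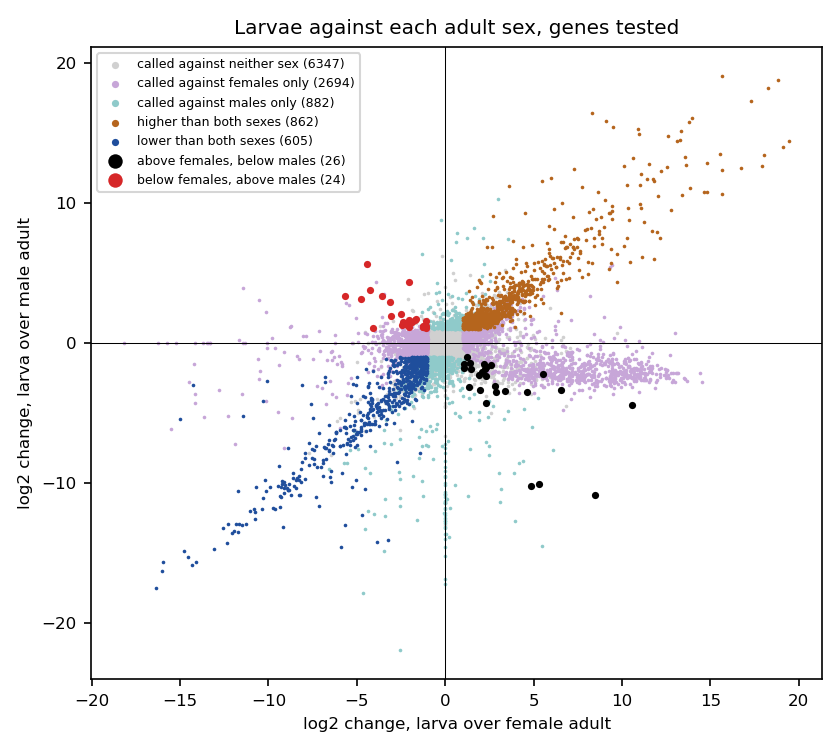
Fitted log2 change of each tested gene in larvae over female adults (x axis) and over male adults (y axis), coloured by which of these comparisons called it. The 862 genes higher than both sexes and the 605 lower than both lie along the diagonal. With larva replicate 1 included, as here, a band of genes called only against females runs far to the right at a small deficit to males. Genes called higher than females by 8-fold or more numbered 1169 with that library and 481 without it.

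Genes called in the same direction against each sex were taken as the stage difference proper, since a mean of logs can hide a gene that one sex lacks. Larvae exceeded both sexes in 862 genes, 7.53% of those tested, and lay below both in 605, 5.29%. Without larva replicate 1 the numbers were 830 (7.21%) and 817 (7.10%), of which 758 and 508 were also in the sets made with all libraries. In 802 of the 862 each larval value lay above each of the 6 adult values, an order found in 1623 of all genes tested (14.2%). In 575 of the 605 each larval value lay below each adult value, as in 1309 of all genes tested (11.4%). With genes at 3 counts or fewer on the lower side set at their bound, the median change was a log2 of 2.47 for the 862 and 2.70, in the adult direction, for the 605. A log2 change of 4 or more was reached by 236 of the 862 and by 208 of the 605. No count was found in any adult library for 11 of the 862, and in any larval library for 55 of the 605. These 2 numbers cannot be set against each other, since adults have 6 libraries and larvae 3. A sum of 3 counts stands for 0.0215 CPM over adults and 0.0574 CPM over larvae, so a gene without counts is easier to meet in larvae.

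The larval genes included many of the most abundant transcripts. The 862 genes took 33.3 ± 2.80% of larval counts (SD, n = 3), 6.42 ± 0.524% of female and 6.23 ± 0.933% of male adult counts. Larva replicate 1, at 34.7%, lay between replicate 2, at 35.2%, and replicate 3, at 30.1%. The 605 adult genes took only 8.79 ± 0.677% of female and 8.70 ± 0.335% of male counts, and 0.712 ± 0.160% of larval counts. On the authors' mean TPM, a length-scaled level that allows genes to be compared with each other, 17 of the top 20 larval genes exceeded both sexes and the other 3 were called against neither. Among the top 20 adult genes, ranked on the mean of the sexes, 3 were lower in larvae than in both sexes and 1 was higher than both. Another 5 were called against females only and 4 against males only, and 6 were called against neither. These adult classes do not add up to the whole list, since genes between the sexes or not tested are not counted in them. The share was lower further down the ranking. Of the top 100 larval genes, 39 exceeded both sexes, 37 were called against neither and 24 against females only. Of the top 100 adult genes, 10 were lower in larvae than in both sexes and 2 were higher than both. Another 60 were called against neither, 23 against females only and 4 against males only. The top 100 lists of larvae and adults shared 53 genes. These sets were chosen on the same larval and adult libraries, so their levels there are a description.

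The contrasts that chose these sets do not involve eggs or pupae, although those libraries helped to set which genes were tested, how libraries were scaled and how much spread was estimated. With the 9 larval and adult libraries alone the sets held 809 and 601 genes, of which 725 and 531 were among the 862 and 605. The 862 larval genes took 5.95 ± 0.437% of egg counts (SD, n = 3), within the 5.17% to 6.91% of the adult libraries. They took 8.42 ± 0.333% of pupal counts (SD, n = 3), and each pupal library, at 8.08% to 8.74%, lay above each adult one. The median level of these 862 genes was 5.47 to 7.5 CPM in egg libraries and 20.4 to 22.8 CPM in pupal ones, against 109 to 151 CPM in larvae and 14.98 to 24.4 CPM in adults. For 625 of them the egg mean did not exceed the higher of the adult sex means, for 175 it lay between adults and larvae, and for 62 it reached or passed the larval mean. For pupae these numbers were 462, 281 and 119. The 605 adult genes took 2.31 ± 0.0695% of egg and 4.33 ± 0.257% of pupal counts. Their median was 2.46 to 3.94 CPM in eggs, near the 2.56 to 3.49 CPM of larvae, and 15.3 to 15.7 CPM in pupae, between larvae and the 27.8 to 39.6 CPM of adults. Of the 605, 209 had a pupal mean at or above the lower adult sex mean, 292 lay between and 104 were at or below the larval mean. Both sets were chosen for a gap between these larval and adult libraries. Where eggs and pupae fall relative to larvae and adults is partly set by that choice and is a description.

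**Figure D2:**
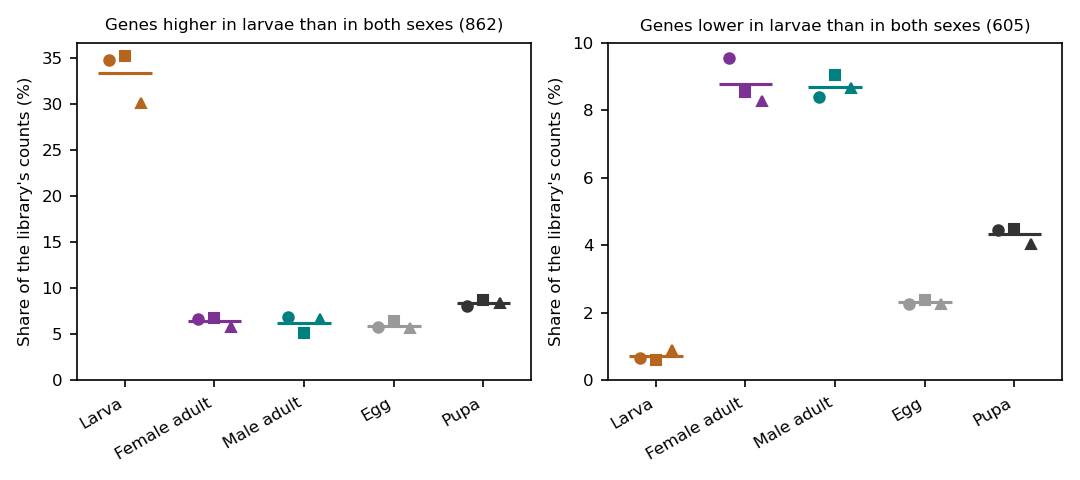
Share of each library's counts (%, y axis) taken by the 862 genes higher in larvae than in both sexes (left) and the 605 lower than both (right), by stage and sex. Circles, squares and triangles are replicates 1, 2 and 3 and bars are means, with larvae at 30.1% to 35.2% on the left and at 0.591% to 0.894% on the right.

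The 5 largest larval excesses by ratio of mean CPM all fell in a block of consecutively numbered identifiers, CAG9856627.1 to CAG9856632.1. CAG9856629.1 stood at 2485, 1946 and 2818 CPM in larva replicates 1 to 3 and had no count in any of the 6 adult libraries, at least 112643-fold higher in larvae against 3 counts summed over adults (adjusted p = 3.75e-05, edgeR). CAG9856632.1 stood at 1623, 1383 and 1904 CPM and CAG9856630.1 at 920.4, 561 and 1036 CPM, and neither had an adult count. Their excess was at least 76302-fold (adjusted p = 3.86e-05, edgeR) and at least 39113-fold (adjusted p = 0.000119, edgeR). In each of these genes all 3 larval libraries were high and larva replicate 1 lay between the others.

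The other pair in this block had a few adult reads. CAG9856627.1 was at 4069, 2130 and 2650 CPM in larvae and at 4 counts over all adult libraries, all from females, a ratio of mean CPM of 117522 (adjusted p = 1.46e-05, edgeR). CAG9856631.1 was at 3911, 3131 and 4145 CPM in larvae and at 10 counts in adults, all from male adult replicate 2, a ratio of 47175 (adjusted p = 1.46e-05, edgeR). All 5 are on the authors' larval list. Per length, their mean TPM in larvae ran from 3464 to 7779, ranks 36 to 9 of all genes in that group. Pupae held at most 0.0660 CPM of any of them on average and eggs at most 0.0685 CPM.

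The block extended beyond these 5 genes. All 11 consecutive identifiers from CAG9856624.1 to CAG9856634.1 exceeded both sexes, with larval means from 3.34 CPM for CAG9856625.1 to 3729 CPM for CAG9856631.1. Together they took 0.895% to 1.55% of larval counts, and at most 0.000140% of any adult library. The 3 lowest, CAG9856624.1 at 17.8 ± 14.3 CPM (SD, n = 3), CAG9856625.1 at 3.34 ± 2.30 CPM and CAG9856626.1 at 6.58 ± 5.73 CPM in larvae, were at 0, 0 and 2 counts in adults. Just before the block, CAG9856621.1 and CAG9856622.1 were called against neither sex, at larval means of 58.1 and 4.76 CPM beside adult means of 91.2 and 6.06 CPM. CAG9856623.1 went the other way, with no larval count and female values of 1.5, 56.4 and 2.02 CPM. After it, CAG9856635.1 and CAG9856636.1 were not tested for low counts, and CAG9856637.1 again exceeded both sexes, at 62.8 ± 28.3 CPM in larvae against an adult mean of 0.281 CPM. The files do not say whether identifier numbers follow the order of genes in the genome, and near-identical copies among such genes could share reads. The block was singled out after its values were seen.

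**Figure D3:**
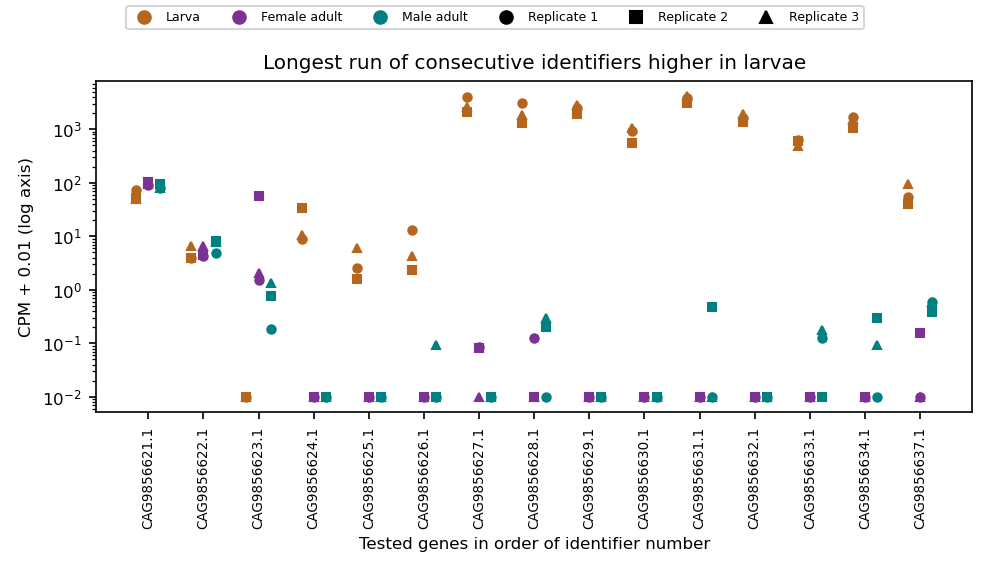
CPM + 0.01 on a log axis for the tested genes from CAG9856621.1 to CAG9856637.1, in order of identifier number, with 3 larval, 3 female and 3 male adult values per gene and libraries without a count at the bottom. Larval values of the 11 genes from CAG9856624.1 to CAG9856634.1 lie at 1.56 CPM or more, while no adult value of these genes passes 0.474 CPM.

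The genes with the highest larval levels were not all silent in adults. CAG9865235.1 had the highest mean TPM of all genes in larvae, 22247 in the authors' table. Its CPM was 22918, 26239 and 29906 in larvae, 4.04, 1.73 and 0.370 in females and 3.47, 4.51 and 3.83 in males, a log2 excess of 13.18 ± 0.91 (SE, adjusted p = 2.87e-06, edgeR). Pupae still held it at a mean of 2112 CPM and eggs at 34.4 CPM. CAG9863593.1, second in larval TPM, was at 17190, 12848 and 7042 CPM in larvae, while its 6 adult values ran from 2.23 to 56.5 CPM, a log2 excess of 8.91 ± 0.87 (SE, adjusted p = 2.08e-05, edgeR). CAG9854680.1 was at 18273, 13040 and 6073 CPM in larvae, and its adult values spread from 3.89 CPM in male adult replicate 2 to 611 CPM in male adult replicate 3, a log2 excess of 6.08 ± 0.93 (SE, adjusted p = 0.000466, edgeR). The larval and adult values of these genes did not overlap, which was a condition for naming them. In the last pair larva replicate 1 was the highest larval library and replicate 3 the lowest.

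CAG9859435.1 and CAG9853988.1 showed the same ranking with a wider spread. CAG9859435.1 was at 20641, 10118 and 2269 CPM in larva replicates 1, 2 and 3, with adult values from 0.983 to 10.8 CPM and a log2 excess of 10.80 ± 1.10 (SE, adjusted p = 2.75e-05, edgeR). CAG9853988.1 stood at 11620, 7807 and 2238 CPM in the same libraries and at 55.0 to 128 CPM in adults, a log2 excess of 6.32 ± 0.53 (SE, adjusted p = 9.21e-06, edgeR). Leaving out larva replicate 1, the excesses were 9.95 and 5.78 on the log2 scale, both still called (adjusted p = 4.20e-05 and 1.18e-05, edgeR). All 5 of these abundant genes are on the authors' larval list.

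Graded differences, in genes that reached 10 CPM in each of the 9 libraries, were found in 376 of the 749 larval genes open to naming. CAG9854000.1 was at 4805, 6263 and 1808 CPM in larvae, 60.0 to 87.8 CPM in females and 44.96 to 56.6 CPM in males, a log2 excess of 6.16 ± 0.40 (SE, adjusted p = 2.25e-06, edgeR). CAG9859690.1, which is on none of the authors' lists, was at 726, 1649 and 1797 CPM in larvae and at 11.3 to 57.1 CPM in adults, 5.63 ± 0.68 higher on the log2 scale (SE, adjusted p = 9.19e-05, edgeR), and eggs held it at 284 CPM and pupae at 108 CPM. CAG9858347.1 was at 1531, 1341 and 314 CPM in larvae and 13.0 to 30.3 CPM in adults, a log2 excess of 5.58 ± 0.47 (SE, adjusted p = 9.21e-06, edgeR).

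**Figure D4:**
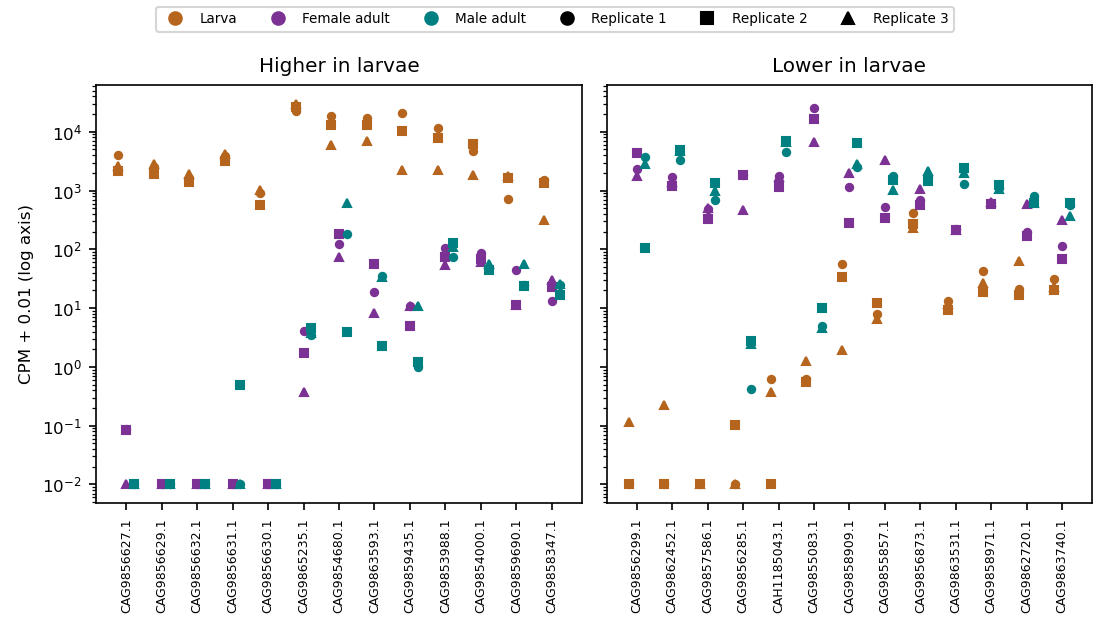
CPM + 0.01 on a log axis for the 13 genes named as higher (left) and the 13 named as lower (right) in larvae than in both sexes, with 3 larval, 3 female and 3 male values per gene. In each gene all 3 larval values lie on one side of all 6 adult values, a condition for being named, and points at the bottom are libraries without a count.

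Genes of adults that larvae lacked were led by CAG9856299.1. It was at 2300, 4382 and 1736 CPM in female and 3701, 106 and 2840 CPM in male adult replicates 1 to 3, with 2 counts in larvae, a ratio of 65659 (exact Poisson bounds 18176 and 542167, for counting error alone; adjusted p = 9.42e-05, edgeR). Male adult replicate 2 was far below the other adult libraries. CAG9862452.1 was at 1191 to 1717 CPM in females and 3285 to 4919 CPM in males, with 4 counts in larvae, a log2 change of -14.91 ± 0.89 (SE, adjusted p = 1.43e-06, edgeR). CAH1185043.1 had a like profile, at 1165 to 1757 CPM in females and 4569 to 6840 CPM in males against 0.611, 0 and 0.368 CPM in larvae, a log2 change of -13.31 ± 1.18 (SE, adjusted p = 1.28e-05, edgeR). Males exceeded females in the first of these genes (log2 female over male of -1.58 for CAG9862452.1, adjusted p = 0.0285, edgeR), while for CAH1185043.1 the adjusted p was 0.0528 (edgeR), and pupae already held them at 195 and 247 CPM.

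CAG9857586.1 had no larval count and stood at 333 to 506 CPM in females and 687 to 1356 CPM in males, at least 12608-fold higher in adults (adjusted p = 6.42e-05, edgeR). Pupae held it at 275 CPM and eggs at 0.192 CPM. A pair of genes met the rule although one sex carried nearly all of their adult reads. CAG9856285.1 was at 1855, 1816 and 464 CPM in females, 0.405, 2.70 and 2.42 CPM in males and 2 counts in larvae. CAG9855083.1 was at 25153, 16257 and 6649 CPM in females, 5.03, 9.91 and 4.50 CPM in males and 0.611, 0.549 and 1.26 CPM in larvae. Larvae were called below males as well in each gene, with adjusted p = 0.0128 and 0.00328 (edgeR). The authors' female list holds both.

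The remaining abundant adult genes kept some larval expression. CAG9858909.1 was at 57.4, 34.4 and 1.95 CPM in larvae against 275 to 2003 CPM in females and 2562 to 6376 CPM in males, a log2 change of -6.09 ± 1.16 (SE, adjusted p = 0.00266, edgeR). CAG9863531.1 was at 9.29 to 13.3 CPM in larvae, at 214 to 218 CPM in females and at 1300, 2417 and 1998 CPM in males, so that larvae, females and males formed 3 separate levels. Males exceeded females in that gene (log2 female over male of -3.14, adjusted p = 0.000715, edgeR). CAG9855857.1 was at 6.47 to 12.2 CPM in larvae and 342 to 3308 CPM in adults, yet pupae held a mean of 2906 CPM. CAG9856873.1 differed least, at 231 to 415 CPM in larvae, 577 to 1081 CPM in females and 1442 to 2129 CPM in males, a log2 change of -1.93 ± 0.33 (SE, adjusted p = 0.000871, edgeR), and it was low in both other stages, at 31.5 CPM in eggs and 11.8 CPM in pupae.

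Among 162 adult genes at 10 CPM or more in each of the 9 libraries, the largest ratio was that of CAG9858971.1. It was at 42.1, 18.6 and 27.0 CPM in larvae, 592 to 651 CPM in females and 1084 to 1249 CPM in males, a log2 change of -4.86 ± 0.98 (SE, adjusted p = 0.00244, edgeR). CAG9862720.1 was at 16.6 to 62.7 CPM in larvae, 166 to 585 CPM in females and 617 to 800 CPM in males (log2 change of -3.79 ± 0.74 in larvae, SE, adjusted p = 0.00197, edgeR). CAG9863740.1 was at 20.7 to 31.8 CPM in larvae, 69.5 to 321 CPM in females and 375 to 625 CPM in males (-3.56 ± 0.51, SE, adjusted p = 0.000278, edgeR). In none of these 3 genes did larvae overlap either sex, as the naming rule required. The 26 genes named so far were called against both sexes with and without larva replicate 1.

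In 50 genes larvae lay between the sexes with both differences called, 26 above females and below males and 24 the reverse. Without larva replicate 1 the numbers were 60 and 32, of which 18 and 23 were the same genes. CAG9853951.1 had no count in females and 2754, 4123 and 3327 CPM in males, and larvae held it at 0.349, 4.07 and 0.947 CPM. CAG9857227.1 had the same pattern at lower levels, with 157 to 269 CPM in males, none in females, and 0.175, 0.412 and 0 CPM in larvae, which is 11 counts in all. Larvae lay below males by a log2 change of -10.85 in the first gene (adjusted p = 0.000168, edgeR) and -10.11 in the second (adjusted p = 6.06e-05, edgeR). CAG9853899.1 showed the reverse, with 467, 571 and 206 CPM in females, 0.142 to 0.791 CPM in males and 5.15, 11.5 and 40.6 CPM in larvae. CAG9859134.1 did so with 91.5 to 175 CPM in females, 0.375 to 0.617 CPM in males and 3.42 to 10.7 CPM in larvae. Against the mean of the sexes none of these 4 genes was called.

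Larva replicate 1 moved a set of genes in one direction. A set of 892 genes was called lower in larvae than the adult mean once that library was left out and not before, and 526 of these were called higher in male than in female adults, a call made for 1820 of all genes tested. Their median level was 27.9 CPM in larva replicate 1, against 0.641 and 0.816 CPM in larva replicates 2 and 3. It was 25.4, 44.5 and 34.4 CPM in male adults, 1.31 to 1.87 CPM in female adults, 16.6 to 23.0 CPM in pupae and 1.32 to 1.60 CPM in eggs. At 1 CPM or more stood 97.2% of them in larva replicate 1, 44.3% and 47.2% in the other larval libraries and 97.5% to 98.1% in males. Larva replicate 1 was thus at the level of males and pupae in these genes, and the other larval libraries were below females. The set was chosen by that difference, so these levels are a description, and what set the library apart was not tested. In the other direction, 186 genes were called higher in larvae only with the library included, and 24 of them were called higher in males than in females.

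**Figure D5:**
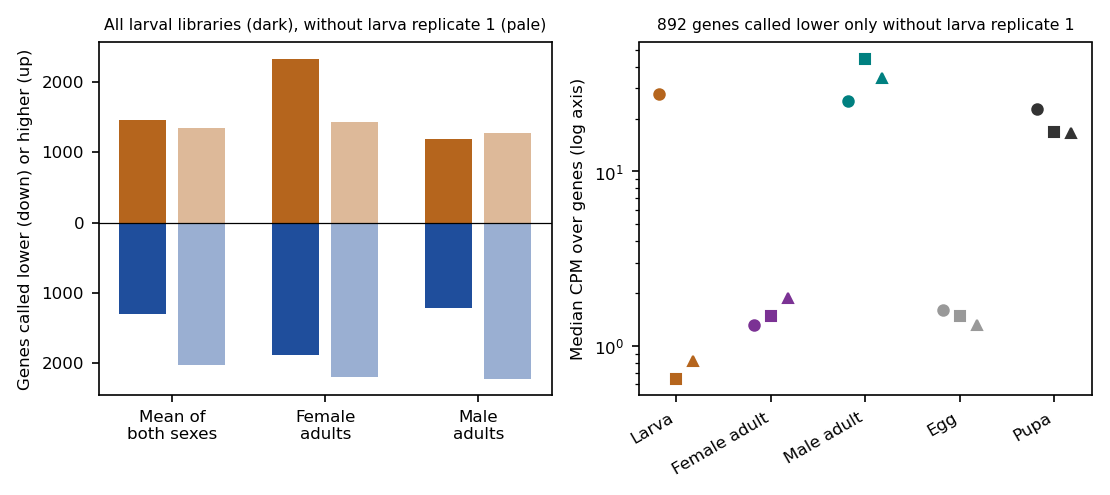
Left, genes called higher (up) and lower (down) in larvae against the mean of both sexes and against each sex, with all libraries (dark) and without larva replicate 1 (pale). Right, median CPM (log axis) of the 892 genes called lower only without larva replicate 1, where circles, squares and triangles are replicates 1, 2 and 3, and larva replicate 1 at 27.9 CPM lies with males and pupae.

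The genes with the highest levels in these sets did not show the full pattern. CAH1164857.1, the most abundant of the 892 in adults, was at 2603, 1435 and 825 CPM in larvae, 2777 to 3671 CPM in females and 1516 to 6688 CPM in males. Its log2 change was -1.15 with all libraries (adjusted p = 0.0949, edgeR) and -1.68 without larva replicate 1 (adjusted p = 0.0340, edgeR). CAG9855598.1 only crossed the limit of 2-fold, from a log2 change of -0.98 (adjusted p = 0.000402, edgeR) to -1.07 (adjusted p = 0.00125, edgeR). Of the 186, CAG9861387.1 was at 8660, 7145 and 2826 CPM in larvae and 46.9 to 1681 CPM in adults, a log2 change of 3.06 (adjusted p = 0.0380, edgeR) that became 2.73 without the library (adjusted p = 0.0784, edgeR). CAG9857891.1 went from 2.48 (adjusted p = 0.0337, edgeR) to 2.21 (adjusted p = 0.0728, edgeR), with larvae at 3414 to 7262 CPM and adults at 37.7 to 3029 CPM. In both genes male adult replicate 2 was the lowest adult library.

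Most genes were not called. For 3224 of the tested genes the 95% interval of the log2 change to the adult mean lay within -1 to 1 under TMM. At that scaling a change over 2-fold is outside the interval for these genes. With library size alone the median gene moved to a log2 change of -0.53, and intervals were not computed there. For 5471 uncalled genes the interval reached further, and these are not shown to be alike. The most abundant gene within the limits was CAG9855532.1, at 14265, 14690 and 12143 CPM in larvae, 9095 to 10349 CPM in females and 7503 to 10597 CPM in males, with an interval from 0.10 to 0.99. On the authors' mean TPM, which is not TMM-scaled, its order was otherwise, with 8331 in larvae, 12176 in females and 8024 in males. CAG9858652.1 was at 2337 to 3545 CPM in larvae and 3557 to 4254 CPM in adults, with an interval from -0.81 to 0.22.

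The authors' deposited lists of stage- and sex-specific genes name genes picked on these very libraries, so the directions below give no independent evidence. Of the larval list 222 of 222 tested genes were higher than the adult mean and 213 higher than both sexes, with a median log2 change of 6.001 beside 0.00 over all genes tested. The 862 genes, 7.53% of those tested, also held 30 of 480 tested genes of the pupal list and 8 of 156 of the egg list, and 611 of them were on no list. Of the male list 51 of 169 tested genes were lower in larvae than the adult mean, 1 was higher, and 113 were lower than males, with a median log2 change to the adult mean of -3.35. With larva replicate 1 left out, 70 of 174 were lower than the adult mean and 164 lower than males, and the median was -5.39. Of the female list 45 of 86 were lower than the adult mean and 76 lower than females, at a median of -3.67. Of the pupal list 73 of 480 were higher and 58 lower, shares near the 12.7% and 11.3% of all genes tested, at a median of 0, and 13 of its genes had no count in larvae or adults. Of the egg list 30 of 156 were higher and 7 lower, beside the same 12.7% and 11.3%, at a median of 0.30, and 13 of 159 were lower with larva replicate 1 left out. Among the 605 adult genes, 545 were on no list, 33 were on the pupal, 16 on the male, 9 on the female and 2 on the egg list.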

How the data were processed

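Whole-body total RNA was extracted with TRIzol and made into Illumina TruSeq RNA libraries, per the labels' protocols. Read trimming, alignment and counting tools appear in the submitters' processing notes as fastp, HISAT2 and featureCounts. Settings, genome build and strandedness: not given in the sources used here. Deposited by the authors were raw read counts per gene, the TPM averaged by them over each group (no spread), and lists of gene identifiers with other values absent. Groups and replicate numbers came from the titles. The design text calls the replicates biological but does not say what separates them, and each p-value reflects the spread among libraries, which may be partly technical.

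Of 11862 genes, 422 were dropped by filterByExpr at default settings. Libraries were scaled by TMM and fitted with edgeR 4.0.16 (R 4.3.3, robust quasi-likelihood fit) with all 15 libraries in 5 groups and no other term, the contrast being larva minus the mean of female and male adults. Calls needed an adjusted p under 0.05 and 2-fold. The standard error is the log2 change over the root of F, and intervals are at 95%. Counts of 0 on a side were bounded at 3 counts over its libraries, for counting error only. DESeq2 1.42.0 was an alternative. The pipeline was also run on simulated counts. These held no difference between the sexes and no library set apart from its group, so that run says nothing on either feature. Per-sample columns left unused numbered 0.

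Genes were named by rule among those called against both sexes, without overlap and with at least 10 CPM on the higher side: in each direction the 5 largest ratios, the 5 highest levels and the 3 largest ratios with 10 CPM in all 9 libraries. Added were 2 per pattern between the sexes, the 2 most abundant with an interval within -1 to 1, and 4 that turned on larva replicate 1. The members, rules and lists were chosen with earlier results of these data known. Lists of gene families planned by name, and markers of cell types, could not be used because no names were at hand.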

Additional observations from a re-analysis of the deposited data

Results flagged for a closer look

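In 26 genes larvae lay above female and below male adults, and in 24 below females and above males, each with both differences called and with the sexes called apart as well (edgeR). The opposite sign of the larval difference in the sexes set these genes aside. Larvae are on both sides of this comparison, so opposite calls in one fit nearly fix the call between the sexes. The numbers moved with the tool and the libraries. DESeq2 gave 96 genes above females and below males, of which 25 were among the 26, and leaving out larva replicate 1 gave 60, of which 18 were.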

How the results depend on the processing

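With library size alone, larvae were higher and lower in 817 and 2789 genes against the adult mean, 1426 and 3712 against females, 739 and 1885 against males, and 513 and 1236 against both sexes. Leaving out larva replicate 1 as well, an alternative chosen after seeing the data, gave 836 and 3138, 852 and 3630, 775 and 2741, and 500 and 1402. Of the 862 and 605 genes, 495 and 586 were still called then. DESeq2 size factors gave 60.2% of calls against the adult mean as higher and the DESeq2 Wald test 60.5%. A test against a minimum log2 change of 1 gave 692 and 525 genes against the mean, 1190 and 956 against females, 469 and 581 against males, and 377 and 291 against both. A minimum log2 change of 2 gave 721 and 573, 774 lower than females, 544 and 710 against males, and 443 and 333 against both, and no minimum fold gave 2055 lower than the mean. Larvae between the sexes numbered 96 above females and below males with DESeq2, with or without its independent filtering, 7 and 4 for this and the reverse pattern under the test against a minimum, 13 and 8 at a log2 of 2, and 78 below females and above males with no minimum fold.

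Leaving out each of the 9 libraries in turn gave 1227 to 1559 higher and 1007 to 2019 lower against the mean, 1433 to 2351 and 1567 to 2195 against females, 941 to 1523 and 806 to 2227 against males, 636 to 969 and 461 to 817 against both, and 15 to 60 and 17 to 33 between the sexes. Larva replicate 1 gave the highest number of lower genes in each comparison and male adult replicate 2 the lowest against males, 806. Among the authors' lists, the egg list gave 9 higher and 17 lower with library size alone, 18 higher with only the 9 libraries and 12 lower with DESeq2, the pupal list 38 and 89 with library size alone and 44 higher with adults as 1 group, and the male list 15 and 0 higher with DESeq2 and adults as 1 group. Over left-out libraries the ranges were 20 to 33 and 6 to 13 for the egg list, 52 to 79 and 38 to 66 for the pupal list, and 1 to 2 higher for the male list. Without larva replicate 1, 39.9% of calls against the mean were higher. The cause of these moves was not tested.

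The 26 genes named as higher or lower than both sexes kept direction and call against the mean in each refit with another scaling, tool, filter, grouping or set of libraries, except that DESeq2 gave CAG9858971.1 no adjusted p. They were not refitted with the test against a minimum, and at a minimum log2 change of 2 CAG9856873.1, at -1.93, is no longer called. No pairing by replicate number was seen: deviations of same-numbered libraries correlated at -0.31 to 0.12, and 0 of 9 libraries correlated best with their own number. With 3 libraries per group, these values cannot decide whether same-numbered libraries share an origin. The replicate block gave 1339 higher and 1244 lower against the mean and 767 and 560 against both sexes.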

Other observations

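Some of the genes higher in larvae than in both sexes carried consecutive identifier numbers. Of the 718 such genes whose next number is in the table, 121 were followed by another of the set (16.9%), while the set makes up 7.53% of genes tested. For genes lower than both sexes, 53 of 519 were (10.2%, beside 5.29%). Runs of 3 or more held 83 genes of the first set in 23 runs, and 17 of the second in 5 runs. These figures are a description, with no test, and were computed after the data were seen.

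The longest run of adult genes had 5 members, CAG9858558.1 to CAG9858562.1. CAG9858558.1 was at 38.0 ± 15.9 CPM in females and 124 ± 33.8 CPM in males (SD, n = 3) with 4 larval counts, and CAG9858559.1, CAG9858560.1, CAG9858561.1 and CAG9858562.1 had no larval count. Males held the higher mean in all 5, with CAG9858560.1 at 4.2 against 2.01 CPM and CAG9858561.1 at 48.9 against 2.98 CPM. The next identifier in the table, CAG9858564.1, also had no larval count, at 106 ± 10.2 CPM in females and 315 ± 77.9 CPM in males.

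In the run from CAG9860118.1 to CAG9860121.1, the last 3 genes were at nearly the same levels, with larval means of 117, 142 and 143 CPM for CAG9860119.1, CAG9860120.1 and CAG9860121.1, female means of 7.18, 7.09 and 7.47 CPM and male means of 6.48, 6.61 and 7.29 CPM. Whether reads are shared between them was not tested. In the run from CAG9864905.1 to CAG9864908.1, CAG9864905.1 and CAG9864906.1 had no male count and female reads in female adult replicate 2 alone, at 0.0736 and 1.62 CPM, against means of 33.9 and 306 CPM in larvae and 20.9 and 71.3 CPM in pupae. Without larva replicate 1, CAG9864907.1 and CAG9864908.1 were called against females only, so that this run of 4 became a pair.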
